A study of Homo sapiens with 21 samples.

Results

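The regions described here lie around 10 genes for secreted signals of inflammation that NF-kB is known to drive: the cytokines LIF, IL6, IL1B and CSF2 and the chemokines CXCL8, CXCL1, CXCL2, CXCL3, CCL2 and CCL20. A region was taken when its summit lay within 50 kb of the body of 1 of these genes in the GENCODE 44 annotation. This gave 45 of 39811 regions, with 31 of 26861 after estradiol, 13 of 10045 after LY500307 and 1 of 2905 after ethanol, and the 45 regions fell on 31 separate sites. The study mapped Flag-tagged estrogen receptor beta (ER-beta) by chromatin immunoprecipitation and sequencing in MDA-MB-231-ER-beta cells (MDA-MB-231-ERb in the sample titles), a line derived from the triple-negative breast cancer line MDA-MB-231 that carries a doxycycline-inducible copy of the receptor. All groups received doxycycline at 100 ng/ml, which the sample titles put at 24 h, and the treatment then lasted 3 h. The treatments were 1 nM estradiol, LY500307, an agonist selective for ER-beta, and ethanol as the vehicle. The titles give 1 nM LY500307 and the characteristics and protocol 10 nM, so that dose is uncertain. Every group, the ethanol controls included, carries the induced Flag-tagged receptor, whose level is set by doxycycline and not by the cells' own gene. The labels describe 12 immunoprecipitated libraries, 4 per treatment, and 9 input libraries, 3 per treatment.

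The authors deposited 1 list of enriched regions per treatment, read here as a list of pooled libraries. How many libraries went into a list is not stated, and the protocol mentions triplicates where the labels show 4. There were no replicate lists to compare, so no value below has an error, no difference between treatments was tested, and each difference is a difference between 3 lists. The fold of a region is the authors' ratio of pooled signal at the summit over local background. Each pool had its own scaling, so the folds of 1 site in different lists are set side by side and are not a measured change. Sequencing depth is unknown from the lists, and a site missing from a list may have stayed under its threshold. RNA was not measured in these files, so neither the levels of the 10 genes nor the identity of the cells could be checked. All positions are hg38, counted from 1.

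NF-kB is a family of transcription factors held in the cytoplasm by inhibitor proteins until an inflammatory signal releases them to the nucleus. There they bind short elements in the promoters and enhancers of cytokine and chemokine genes. MDA-MB-231 cells are known for steady NF-kB activity and for secreting IL6 and CXCL8. ER-beta is a ligand-activated receptor that binds the estrogen response element (ERE), a palindrome of the form GGTCANNNTGACC. Estrogen receptors are also known to sit at sites of other factors, AP-1 (TGACTCA on either strand) and NF-kB among them, without a full ERE.

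Of all 10 genes, LIF had the most regions and the strongest ones in each list. Its strongest site lay 7.0 kb upstream of the start, at chr22:30253295-30253973 in the estradiol list, and it was the 1 site of the 31 found in all 3 lists. The estradiol summit with 100 bases on either side (chr22:30253658-30253858, plus strand) is shown because it holds an ERE with 1 mismatch and an NF-kB element, both in capitals.

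LIF, 7.0 kb upstream: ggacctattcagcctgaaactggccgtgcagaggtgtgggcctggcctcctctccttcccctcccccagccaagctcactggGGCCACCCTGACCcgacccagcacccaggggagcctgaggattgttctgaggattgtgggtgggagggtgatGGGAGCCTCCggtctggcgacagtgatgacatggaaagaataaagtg

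The second strong LIF site lay on the other side of the gene, 51.3 kb from the start and 45.0 kb beyond its end, in intron 1 of the long noncoding RNA gene ENSG00000225676. The same stretch around its summit (chr22:30195387-30195587, plus strand) is shown for comparison, because it holds no ERE with 1 mismatch. Capitals mark a single ERE arm (AGGTCA), an AP-1 element 3 bases after it and, near the end, an NF-kB element read on the minus strand.

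LIF, 51.3 kb downstream: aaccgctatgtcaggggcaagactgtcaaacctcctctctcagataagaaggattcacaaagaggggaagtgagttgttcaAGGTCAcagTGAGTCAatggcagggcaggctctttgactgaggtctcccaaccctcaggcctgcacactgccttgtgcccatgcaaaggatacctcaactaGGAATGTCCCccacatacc

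A CXCL8 site 18.4 kb upstream of the gene had the third NF-kB element of the set. The stretch around its summit (chr4:73722028-73722228, plus strand) carries an AP-1 element beside the summit and, 89 bases from the summit, an NF-kB element on the minus strand, again in capitals.

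CXCL8, 18.4 kb upstream: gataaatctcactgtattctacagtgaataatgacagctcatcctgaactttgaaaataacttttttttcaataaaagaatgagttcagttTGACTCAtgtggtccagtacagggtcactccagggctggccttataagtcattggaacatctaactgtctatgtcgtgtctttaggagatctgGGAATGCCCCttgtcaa

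The first question was which of the 10 genes had a region at all. With estradiol 7 of 10 did: LIF, CXCL8, CXCL1, CXCL2, CCL20, CSF2 and IL1B. With LY500307 5 did: LIF, CXCL8, CXCL1, CXCL2 and CCL20. With ethanol 1 did, LIF. The same rule applied to all 20007 protein-coding genes found a region for 74.5% of genes with estradiol, 49.2% with LY500307 and 22.8% with ethanol. The counts for the 10 genes are near or under these shares, so having a region nearby did not mark them out from other genes. The bodies of these genes are short, with a median of 2.79 kb against 27.5 kb for all protein-coding genes, which gives them a smaller window. Measured from the start of the gene alone, the shares of all genes were 67.6%, 40.04% and 17.7% in the same order of lists, and the members still numbered 7, 5 and 1.

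**Figure D1:**
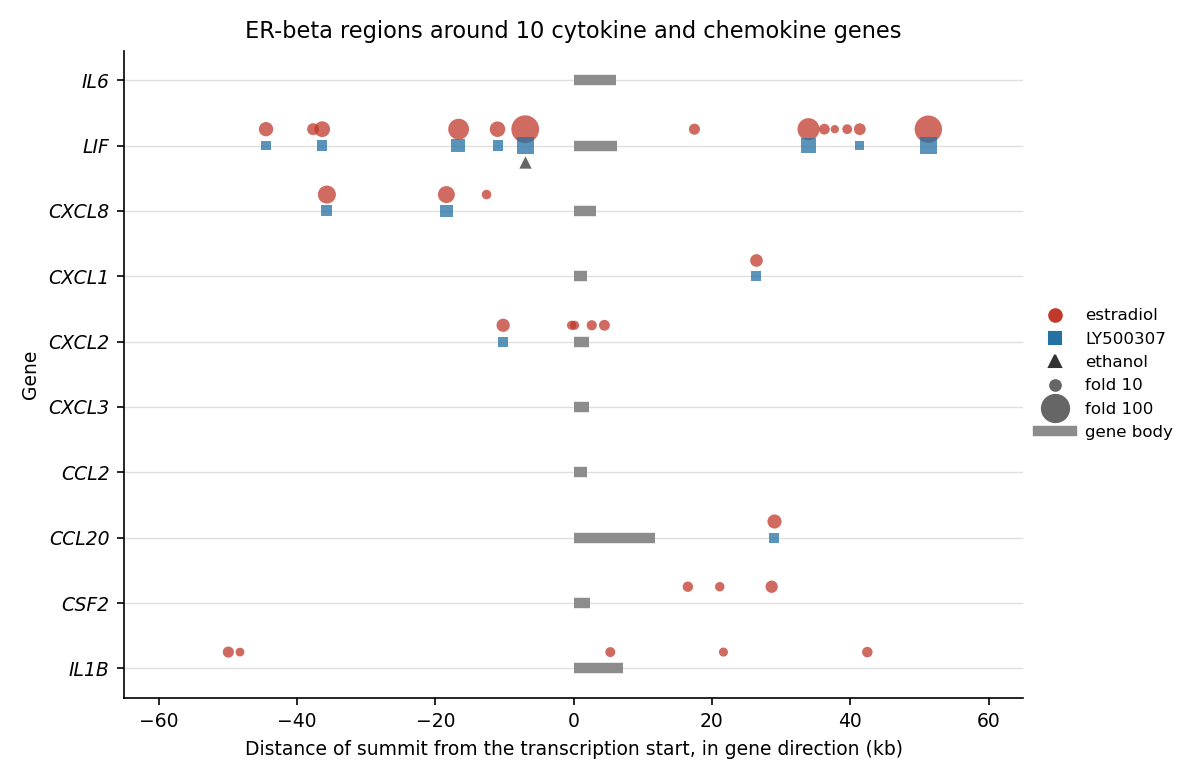
Each symbol is a region, placed by the distance of its summit from the transcription start of its gene (kb, in the direction of the gene), with 1 row per gene and symbol area growing with the fold; red circles are estradiol, blue squares LY500307 and dark triangles ethanol, and grey bars are gene bodies. LIF carries 13 estradiol, 8 LY500307 and 1 ethanol region, while IL6, CXCL3 and CCL2 carry none.

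LIF, a cytokine of the IL6 family that signals through LIFR and IL6ST, lies on the minus strand at chr22:30240453-30246759. It had 13 estradiol regions, 8 LY500307 regions and 1 ethanol region. In the estradiol list 305 of 20007 genes (1.52%) had 13 or more regions, and in the LY500307 list 136 genes (0.680%) had 8 or more. The median over all genes was 2 regions with estradiol, 0 with LY500307 and 0 with ethanol.

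At the site 7.0 kb upstream the fold was 104.5 with estradiol, 37.3 with LY500307 and 15.7 with ethanol. Its rank by fold was 540 of 26861 with estradiol, 676 of 10045 with LY500307 and 339 of 2905 with ethanol, and its -log10 q was 391.7, 119.8 and 37.9 in that order. The summits were at 30253758 with estradiol, 30253748 with LY500307 and 30253741 with ethanol, a few bases apart. The ERE, GGCCACCCTGACC at chr22:30253740-30253752, was centred 12 bases from the estradiol summit, 2 from the LY500307 summit and 5 from the ethanol summit. The NF-kB element, GGGAGCCTCC at chr22:30253812-30253821, was 59, 69 and 76 bases from the same summits. It did not match a narrower NF-kB consensus that was also tried. An ERE and an NF-kB element in 1 window were found in 169 of the 26861 estradiol regions (0.629%). A region of fold 104.5 or more lay within 50 kb of 1063 protein-coding genes (5.31%), so a site of this strength was uncommon but not particular to LIF.

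The site 51.3 kb downstream had almost the same strength, with an estradiol fold of 101.5 and an LY500307 fold of 37.3, and no region with ethanol. It ranked 583 with estradiol, and with LY500307 it shared rank 676 with the upstream site because the deposited values were identical. Its nearest match to an ERE, GGTCACAGTGAGT, had 2 mismatches and ran into the AP-1 element shown above. The AP-1 element was centred 7 bases from the estradiol summit, and the NF-kB element 87 bases from it. LIF had the nearest protein-coding start.

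Next in strength was a site 34.0 kb downstream of the LIF start (chr22:30212600-30213032), with an estradiol fold of 64.0 and an LY500307 fold of 26.4. A site 16.6 kb upstream had 56.3 with estradiol and 20.5 with LY500307, and lay in the last exon of OSM, the gene of the related cytokine oncostatin M. These sites and the pair above 100 were the 4 regions of the 31 that reached the top decile of estradiol folds.

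The other LIF regions were weaker. A site 36.4 kb upstream had an estradiol fold of 29.5 and an LY500307 fold of 8.37, and one 11.0 kb upstream, with a pair of AP-1 elements, had 28.5 and 8.35 in the same order. A site 44.5 kb upstream, in an intron of the protein-coding gene ENSG00000248751, had 23.2 with estradiol and 7.59 with LY500307. One 41.4 kb downstream had 13.8 with estradiol and 6.28 with LY500307. The remaining 5 were in the estradiol list alone, with folds of 14.5, 11.5, 10.5, 7.70 and 3.74, and the last of these ranked 26706 of 26861. No LIF region lay inside the gene or within 1 kb of its start.

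All LIF regions were shared with neighbours. Those upstream also lay within 50 kb of OSM, TBC1D10A and CASTOR1. The one 17.5 kb downstream of the start also lay within 50 kb of OSM, and the others downstream within 50 kb of HORMAD2. The 3 farthest upstream had CASTOR1 as the nearest start, and those 11.0 and 16.6 kb upstream had OSM. Which gene a region acts on was not measured.

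**Figure D2:**
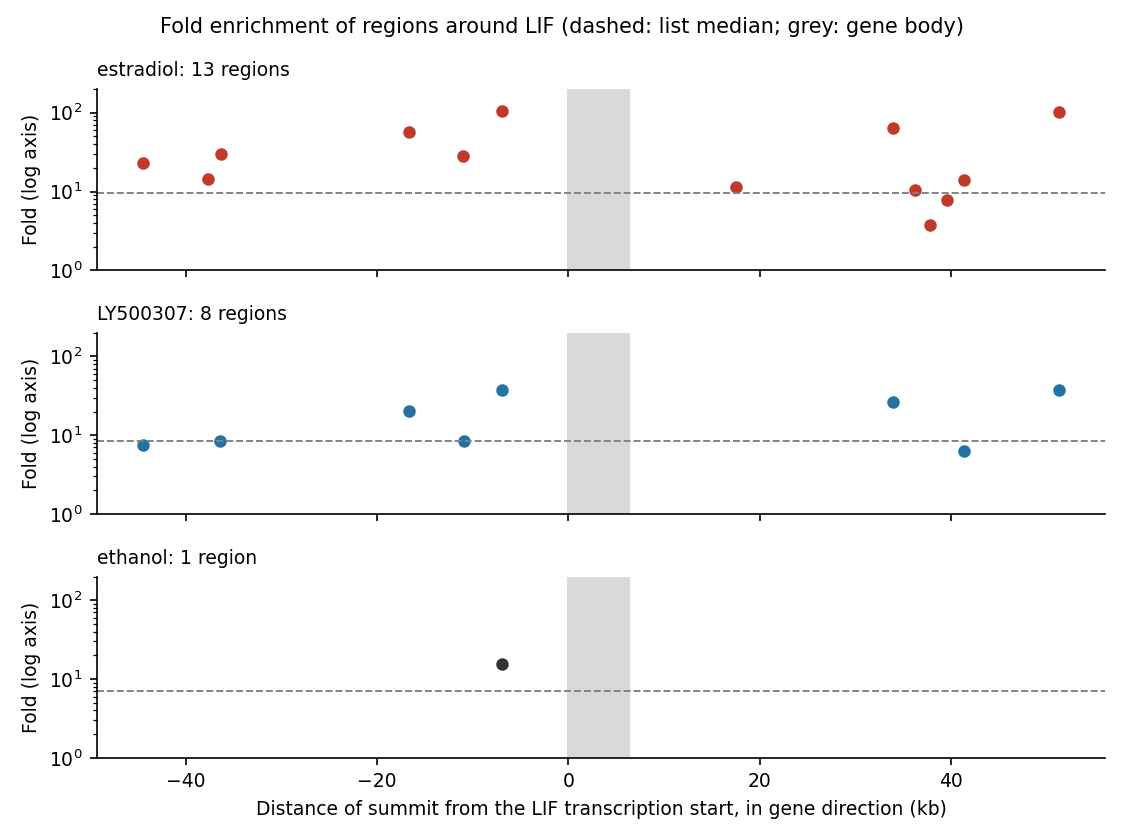
Fold of each region around LIF (log axis) against the distance of its summit from the LIF transcription start (kb, in the direction of the gene), with 1 panel per list; the dashed line is the median fold of the whole list and the grey band the gene body. The points at 7.0 kb upstream stand at 104.5 with estradiol, 37.3 with LY500307 and 15.7 with ethanol.

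CSF2 encodes the growth factor of granulocytes and macrophages and lies at chr5:132073789-132076170. All 3 of its regions came from the estradiol list and lay downstream of its end. The region 14.1 kb beyond the end had a fold of 9.38 and an AP-1 element, the one at 18.7 kb had 6.70 and an AP-1 element, and the one at 26.2 kb had 15.6 and a single ERE arm. The nearest LY500307 region was 71.6 kb upstream, with a fold of 11.5, outside the window.

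IL1B, the gene of interleukin 1 beta, lies on the minus strand at chr2:112829751-112836816. All 5 of its regions came from the estradiol list. Intron 5 of the gene held 1 of them (chr2:112831335-112831593), with a fold of 8.09. The others lay 14.6 kb beyond the end with a fold of 5.61, 35.4 kb beyond the end with 9.65, and 48.2 and 49.9 kb upstream with 4.88 and 11.6. The first of these 4 had IL1B as its nearest start, the second IL1A and the pair upstream IL37. None of the 5 held an ERE, an NF-kB or an AP-1 element. The region 14.6 kb beyond the end held a single ERE arm (AGGTCA) beside its summit. The nearest LY500307 region was 99.7 kb away.

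IL6, a classical target in studies of estrogen receptors and NF-kB, had no region within 50 kb of its body (chr7:22725884-22732002) in any list. The nearest was 59.5 kb downstream, with TOMM7 as the nearest start, an estradiol fold of 12.1 and an LY500307 fold of 5.78. The nearest ethanol region was 703.8 kb away.

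Among the chemokines, CXCL8, CXCL1, CXCL3 and CXCL2 belong to 1 cluster on chromosome 4 and attract neutrophils through CXCR2, or CXCR1 and CXCR2 for CXCL8. CXCL8 (chr4:73740519-73743716) had 3 regions, all upstream, and their nearest start was CXCL8 itself. The one 35.7 kb upstream (chr4:73704639-73705153) had an estradiol fold of 40.6 and an LY500307 fold of 11.8. The one 18.4 kb upstream, shown above, had 35.0 with estradiol and 16.3 with LY500307. The order of these sites by fold was thus turned round between the lists. The third, 12.6 kb upstream, had 7.0 with estradiol and no region with LY500307.

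CXCL1 (chr4:73869393-73871308) had 1 site, 24.5 kb beyond its end, with an estradiol fold of 16.8 and an LY500307 fold of 6.45 and a single ERE arm 44 bases from the estradiol summit. This site also lay within 50 kb of CXCL6, another chemokine gene, and of PF4V1.

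CXCL2, on the minus strand at chr4:74097040-74099196, had 5 estradiol regions. The strongest was 10.2 kb upstream (chr4:74109235-74109740), with an estradiol fold of 19.1 and an LY500307 fold of 6.79, and its nearest start was MTHFD2L. The other 4 were in the estradiol list alone. The one 2.62 kb after the start, just beyond the end of the gene, had a fold of 8.75 and held the second ERE of the set. Its summit with 200 bases on either side had 3065 other alignments in hg38, so the sequence is repetitive. A further CXCL2 region, 4.45 kb after the start, had a fold of 10.8.

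The remaining CXCL2 regions were the 2 of the 31 within 1 kb of the start of a member gene. Their folds were 5.81 in coding exon 1 and 6.25 at 0.286 kb upstream, at ranks 22506 and 20961 of 26861. The window around the exon 1 summit was 93.0% identical over 399 bases to CXCL3 and 92.3% identical over 403 bases to CXCL1, where no list had a region. How reads that align to several such copies were handled is not given in the sources used here, so the placement of the weak exon 1 region is uncertain. The window around the summit 0.286 kb upstream had 0 other alignments.

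CXCL3 (chr4:74036589-74038807) had no region within 50 kb in any list. The nearest was the CXCL2 region 4.45 kb after the CXCL2 start, 55.9 kb upstream of CXCL3.

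The upstream sites of CXCL8 and CXCL2 resembled each other in sequence. The CXCL8 site 35.7 kb upstream and the CXCL2 site 10.2 kb upstream lie 404.5 kb apart, and a search of hg38 with each returned the other as its 1 further alignment. They were identical at 314 of 378 aligned positions (83.1%), and both had an estradiol and an LY500307 region. On the measure used for the other copies here, the identity given by the search, the CXCL8 site had 78.15% over 421 bases. The CXCL2 site had 77.86% over 402 bases. The 86 bases around the estradiol summit of the CXCL8 site and the matching bases of the CXCL2 site follow, both on the plus strand, with a single ERE arm on the minus strand in capitals.

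CXCL8, chr4:73704809-73704894: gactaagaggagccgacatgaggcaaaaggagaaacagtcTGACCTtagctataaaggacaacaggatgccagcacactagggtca

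CXCL2, chr4:74109360-74109445: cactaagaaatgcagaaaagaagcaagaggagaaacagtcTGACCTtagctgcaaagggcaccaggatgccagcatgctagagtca

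Of these 86 letters 70 were the same, and the ERE arm was the same at both. Its centre was 3 bases from the estradiol summit at the CXCL8 site and 17 at the CXCL2 site. The fold was 40.6 at the CXCL8 site and 19.1 at the CXCL2 site with estradiol, and 11.8 and 6.79 with LY500307.

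CCL20, which attracts cells carrying CCR6, had 1 site, 17.1 kb beyond its end (chr2:227834470-227834817), with an estradiol fold of 22.5 and an LY500307 fold of 6.07. Its sequence is repetitive, with 613677 other alignments of a stretch of the same length in hg38. CCL2, which attracts monocytes through CCR2, had no region within 50 kb of its body (chr17:34255274-34257208). Its nearest estradiol region was 84.8 kb downstream with a fold of 5.05, and the nearest LY500307 and ethanol regions were 607.3 and 1181.8 kb away.

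Just inside the window of 50 kb lay the IL1B regions at 49.9 and 48.2 kb, and just outside it the region 55.9 kb from CXCL3, one 58.7 kb from CCL20 with a fold of 8.5, and the one 59.5 kb from IL6. Within 100 kb all 10 genes had an estradiol region, and 9 an LY500307 region, against 83.2% and 62.8% of all genes.

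**Figure D3:**
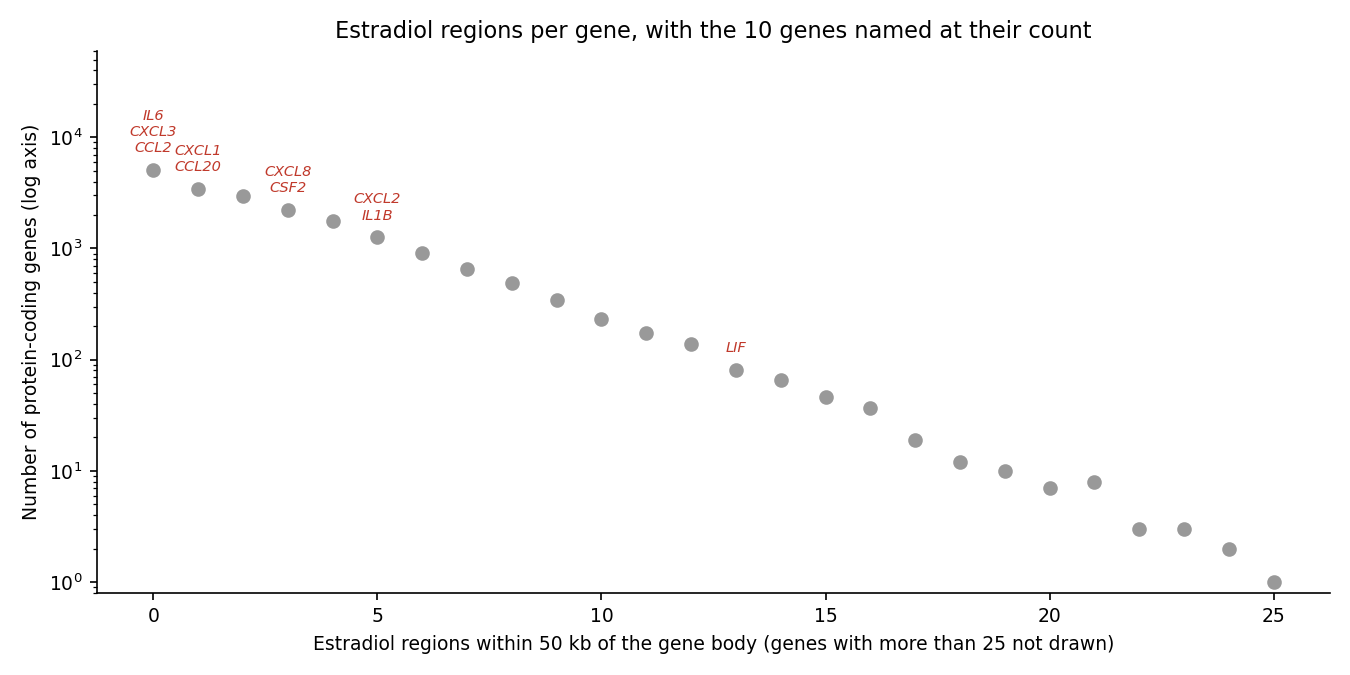
Number of protein-coding genes (log axis) against the number of estradiol regions within 50 kb of the gene body, with the 10 genes named above the point of their count. Counts are 0 for IL6, CXCL3 and CCL2, 1 for CXCL1 and CCL20, 3 for CXCL8 and CSF2, 5 for CXCL2 and IL1B and 13 for LIF, and genes with more than 25 are not drawn.

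Across all 31 estradiol regions the fold ran from 3.74 to 104.5 with a median of 11.6, against a median of 9.50 for the whole list. Without LIF the median of the other 18 was 9.51. In the LY500307 list the 13 folds ran from 6.07 to 37.3 with a median of 8.37, against 8.46 for the whole list, and the 5 outside LIF had a median of 6.79. By position, 24 of the 31 were intergenic and 4 in introns, and for 22 the nearest start was that of a member gene. These counts have no share of the whole list beside them. The regions were taken for lying near short genes, so the counts do not mark them out from other regions.

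**Figure D4:**
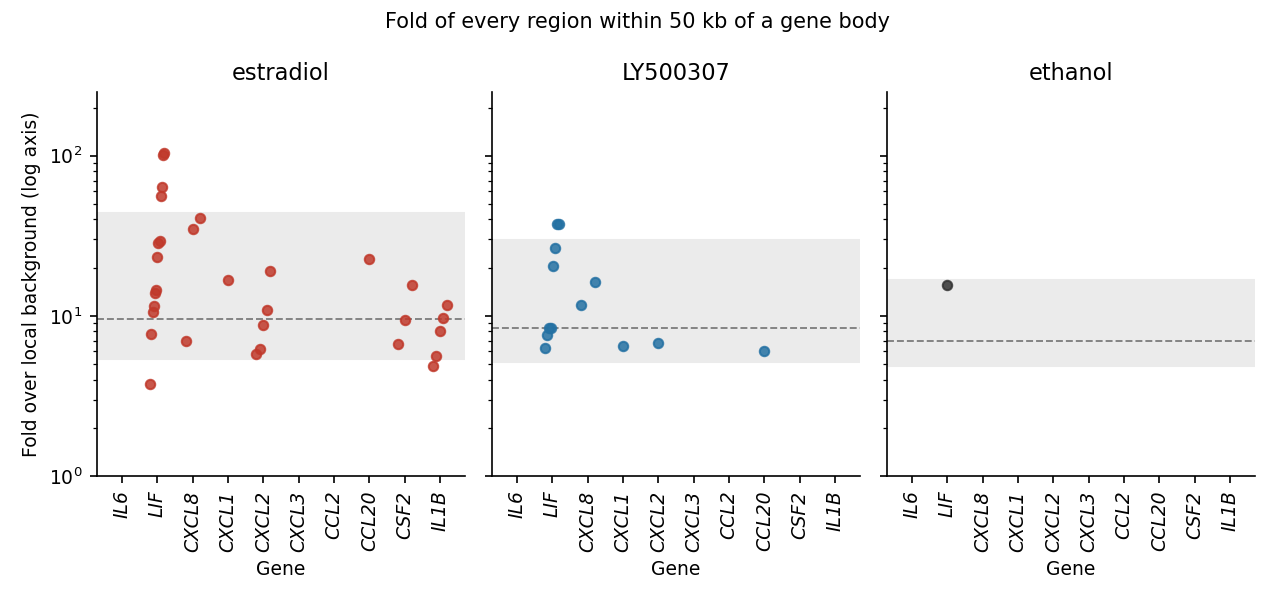
Fold of every region (log axis) by gene, with estradiol, LY500307 and ethanol in separate panels; the dashed line is the median of the whole list and the grey band its range from the 10th to the 90th percentile. In the estradiol panel 4 LIF regions lie above the band, which ends at 43.8, and a LIF region at 3.74 and an IL1B region at 4.88 lie below it.

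The next comparison was which sites the lists shared. All 13 LY500307 regions overlapped an estradiol region, as did 91.9% of the whole LY500307 list. In the other direction 13 of 31 estradiol regions (41.9%) overlapped an LY500307 region, against 33.8% of the whole estradiol list. With LIF left out this was 5 of 18. The single ethanol region, at LIF, overlapped a region of both other lists. Of the whole ethanol list 87.0% overlapped an estradiol and 79.8% an LY500307 region. In the other direction 1 of 31 estradiol and 1 of 13 LY500307 regions overlapped an ethanol region, against 9.26% and 22.9% of the whole lists. In the top decile of estradiol folds the share with an ethanol region was 49.9%.

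The shared estradiol regions were the stronger ones. Their folds ran from 13.8 to 104.5 with a median of 29.5, and the 18 without an LY500307 region ran from 3.74 to 15.6 with a median of 8.42. The groups overlapped between 13.8 and 15.6, in which range lay a shared LIF region and unshared LIF and CSF2 regions. The whole list showed the same pattern, with a median fold of 27.7 for shared and 7.59 for other estradiol regions. In the top decile of estradiol folds 100% of regions overlapped an LY500307 region, in the next decile 91.6%, and in the 6 lowest deciles 8.94% to 13.8%. The sharing of the cytokine and chemokine sites thus went with their rank, as in the whole list.

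At the 13 shared sites the estradiol fold was 2.14 to 3.70 times the LY500307 fold. The lowest ratio was at the CXCL8 site 18.4 kb upstream and the highest at CCL20. Over all 9082 estradiol regions with an LY500307 partner the median ratio was 2.58, with the 10th and 90th percentiles at 1.22 and 4.29, so the 13 lay within the usual range of lists that were scaled apart.

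DNA elements were sought within 100 bases on either side of each summit. An ERE with at most 1 mismatch was in 2 of 31 estradiol regions, at LIF and CXCL2, against 13.8% of the whole list and 0.644% of windows 2000 bp downstream. The NF-kB consensus of 10 bases, with no mismatch, was in 3 estradiol regions, against 7.26% of the whole list and 4.61% of downstream windows. AP-1 was in 6, at LIF, CXCL8 and CSF2, against 13.8% of the list and 3.43% downstream. At least 1 ERE arm in the form AGGTCA was in 11, against 44.7% of the list and 15.3% downstream. Some of these windows held more than 1, and at CXCL2 one copy overlapped the ERE itself. No region held a full ERE without a mismatch, which 1.65% of the list did.

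In the LY500307 list an ERE was in 1 of 13 regions (15.7% of the whole list), NF-kB in 2 (6.72%), AP-1 in 3 (13.7%) and at least 1 AGGTCA arm in 8 (44.9%). The 1 ethanol region held the LIF ERE and NF-kB element shown above. A match is a description of the letters, since binding of NF-kB or AP-1 was not measured.

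Promoters gave another view of the NF-kB elements. The 10 genes were picked as known targets of NF-kB, so the promoter count describes them and tests nothing. RefSeq promoters (GRCh38.p14, 250 bases before to 50 after the start) were found for 8 of the 10 genes, all but LIF and CCL2. The NF-kB consensus, with no mismatch, was in 5 of the 8, IL6, CXCL1, CXCL2, CXCL3 and CCL20, against 11.3% of 35116 promoters. Elements with a mismatch were not counted, so the other promoters may hold one. The elements found, in capitals on the strand of the gene, are well known for the induction of such genes.

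IL6: tcaaatgtGGGATTTTCCcatgagtc

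CXCL1: ggaactccGGGAATTTCCctggcccg

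CXCL2: ggagctccGGGAATTTCCctggcccg

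CXCL3: ggagctccGGGAATTTCCctggcccg

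CCL20: atcaatggGGAAAACCCCatgtggca

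The element began 73 bases before the RefSeq start in IL6, 78 in CXCL2 and 79 in CXCL1, CXCL3 and CCL20. The CXCL2 and CXCL3 stretches were the same letter for letter. An ERE was in 0 of the 8 promoters, against 0.817% of all. An AP-1 element was in the CXCL8 promoter, and a single ERE arm in that of CCL20. None of the 5 NF-kB elements lay inside an estradiol region. The closest was that of CXCL2 (chr4:74099264-74099273), in a gap between the weak regions at the start of that gene, 55 bases from one and 17 from the other. For CXCL1, CCL20, CXCL3 and IL6 the nearest estradiol region was 26.2, 20.7, 55.8 and 64.2 kb from the element.

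Of 11 receptor genes for these signals, 8 had a region in the estradiol list, 7 in the LY500307 list and 4 in the ethanol list. These are 72.7%, 63.6% and 36.4% of the 11, against 74.5%, 49.2% and 22.8% of all protein-coding genes. The strongest was in coding exon 3 of CSF2RB, a shared subunit of the receptors for CSF2 and related cytokines, with a fold of 187.0 after estradiol, 95.3 after LY500307 and 40.8 after ethanol, and rank 5 in the estradiol list. A site 15.9 kb from IL1R1, the signalling receptor of IL1B, had 106.7 with estradiol and 46.3 with LY500307. One 7.98 kb from LIFR, the receptor of LIF, had 66.7 with estradiol, 38.2 with LY500307 and 5.49 with ethanol. A site in intron 3 of IL6R had 49.2 with estradiol and 21.4 with LY500307, whereas IL6 itself had none.

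Of 21 other NF-kB targets, 15 had an estradiol region, 12 an LY500307 region and 7 an ethanol region, which are 71.4%, 57.1% and 33.3% of the 21 beside the same shares of all genes. Intron 2 of IL24, a cytokine of the IL10 family, had a fold of 111.3 after estradiol, 57.8 after LY500307 and 13.5 after ethanol. A site 0.979 kb from CSF3, the granulocyte growth factor gene, had 87.8 with estradiol, 46.2 with LY500307 and 4.73 with ethanol. SOD2, a mitochondrial superoxide dismutase gene, had its strongest site 43.6 kb away in an intron of PNLDC1, with 62.5, 15.9 and 6.87 in the same order of lists. PTX3, a secreted pattern recognition protein gene, had one 20.3 kb away in an intron of VEPH1, with 45.5 with estradiol and 15.9 with LY500307. TNF, CCL5, CCL7, CXCL5, VCAM1 and PTGS2 had no region in any list.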

How the data were processed

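Per the labels, 3 deposited narrowPeak lists were analysed, 1 per treatment. Tools listed in the submitters' processing notes are MACS2 2.1.1.20160309, Bowtie2 2.2.6 and DiffBind, with the build hg38 and no role for any of them. The deposited fold is the authors' ratio of pooled signal over local background at the summit, and the deposited -log10 q is theirs too; the deposited score is a display value and was not used. Records outside chromosomes 1 to 22, X and Y were dropped (leaving 26861 of 26896 estradiol, 10045 of 10059 LY500307, 2905 of 2911 ethanol), with a lowest -log10 q of 2.15, 2.11 and 2.02.

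Regions were joined to GENCODE 44 protein-coding genes by the summit, ranked by fold, and called shared at 1 bp of overlap. Elements were sought on both strands within 100 bases of the summit and in equal windows 2000 bp downstream. Of the 10 fixed positions of the ERE 1 could differ, and the other elements allowed no mismatch. Overlapping elements of different kinds were counted for each kind. Copies of the summit with 200 bases on either side were sought in hg38 with blastn 2.17.0. Scripts ran in Python 3.11.15 with pandas 2.3.3 and pysam 0.24.0, and the search for elements and the distance rule were tested on simulated data.

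The gene lists were chosen with earlier results of these data known. All 10 genes and their regions are named or counted, along with up to 4 genes per further list, those with the highest estradiol fold. Alternatives were other windows, thresholds, overlaps, mismatches and ranks. The sequence of 1 element is not reported here.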

Additional observations from a re-analysis of the deposited data

How the results depend on the processing

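Within 20 kb of a gene body 16 estradiol and 6 LY500307 regions were left, and the shares of all genes were 63.5%, 36.1% and 15.5% with estradiol, LY500307 and ethanol. Within 100 kb 10, 9 and 1 did, against 83.2%, 62.8% and 33.0%, and the ethanol regions numbered 2. Measured from the start the shares were 67.6%, 40.04% and 17.7%, and at a -log10 q of 5 or more 72.8%, 46.6% and 20.5%. In both of these settings the member genes numbered 7, 5 and 1. Without LIF, a setting chosen after seeing the data, 18 estradiol, 5 LY500307 and 0 ethanol regions were left, with 0 genes for ethanol, 5 regions were shared between estradiol and LY500307 and 0 with ethanol, 1, 0 and 0 held an ERE and 1, 0 and 0 an NF-kB element. With at least 50% of each region covered, 0 estradiol regions were shared with ethanol. At the LIF site concerned the ethanol region is 289 bp wide and the estradiol region 679 bp. With no mismatch an ERE was in 0 regions of any list, and with at most 2 in 12 estradiol and 7 LY500307 regions (44.6% and 46.9% of the whole lists). Within 200 bases of the summit an NF-kB element with no mismatch was in 7 estradiol regions. No share of the whole list is given at that wider width. The count of 7 therefore cannot be set against the 7.26% found within 100 bases. With 1 mismatch an NF-kB element was in 18 estradiol and 9 LY500307 regions (54.4% and 52.1% of the lists), and in the narrower consensus in 1 LY500307 and 0 ethanol regions. The element lost in the narrower consensus was that of the LIF site 7.0 kb upstream. By -log10 q the median rank was 5455 against 5081 with LY500307, and 421 against 339 with ethanol. The values that stayed within 1.5 times the main count numbered 65, some of them given above. No replicate could be left out. No paired analysis was possible because each treatment has 1 pooled list and no result comes from a test.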

Other observations

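Of the 31 estradiol regions near the 10 genes, 22 had no second alignment of the summit with 200 bases on either side in hg38, 5 had 1 to 9 and 4 had 10 or more. The 4 were at CXCL2, 2.62 kb after the start, at CCL20, and at IL1B, 21.7 kb after the start and 49.9 kb upstream. None of these 4 windows had another alignment of at least 90% identity over 200 bp.

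The CXCL2 region 4.45 kb after the start was 89.0% identical over 399 bases to a stretch within 2 kb of CXCL1, where no list had a region. IL1A, the neighbour of IL1B that encodes interleukin 1 alpha, had 4 estradiol regions, with a highest fold of 11.0, and none in the other lists.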
